A study of Homo sapiens with 30 samples.

Results

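The unfolded protein response and the ATF4 stress response were followed through 33 genes in U87 and U251 human glioblastoma cells under long exposure to interferon-γ (IFN-γ). The genes were chosen by name for their known roles, with earlier results of these data known, and all 33 were found among the 61471 gene rows of the table of each line. All of them passed the filter on low values (0.5 TPM on average over the libraries of a line, where TPM is a transcript level scaled for gene length and library total), which left 22918 genes to test in U87 and 23667 in U251. For this account, 18 genes form the endoplasmic reticulum (ER) side and 15 the ATF4 side.

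Bulk RNA sequencing was carried out on wild-type U87-MG and U251-MG cells, established lines derived from malignant glioma. Untreated cells, without IFN-γ, were labelled as collected on day 3. Groups under treatment were labelled as given 1 µg/mL IFN-γ and collected on day 3 (D3), day 14 (D14) and day 28 (D28), the last with treatment continued throughout. In the D28WO group the cells were collected on day 28 after IFN-γ had been withdrawn on day 14. The study's own methods place the Untreated collection on day 0 and give a different dose. The libraries of each group are the same either way, but with a day 0 collection D3 also has no untreated culture of its own day. No untreated culture was kept to day 14 or day 28 in these samples, so time in culture and IFN-γ cannot be told apart. Replicates were separate cultures of each line, and the lines were not re-authenticated after receipt and are on a register of commonly misidentified lines. Values from 13 U87 libraries (n = 2 at D3 and at D14, replicates 2 and 3, and n = 3 elsewhere) and 15 U251 libraries (n = 3 in every group) were used.

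The unfolded protein response is set off when unfolded proteins build up in the ER and is read by the membrane sensors IRE1 (gene ERN1), ATF6 and PERK (gene EIF2AK3). IRE1 splices XBP1 messenger RNA, and spliced XBP1 and cleaved ATF6 switch on ER chaperones and the machinery that removes misfolded proteins. PERK phosphorylates the translation factor eIF2α, which lowers protein synthesis but favours translation of ATF4. Kinases that sense double-stranded RNA, amino acid shortage or haem shortage act on the same factor, so that ATF4 and its targets in amino acid synthesis, transport and stress feedback can be engaged with or without the ER chaperones.

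The libraries were checked before the genes were compared. TPM keeps no sequencing depth, so the depth behind each value is unknown, and differences in cell number and in RNA content per cell cannot be told apart in bulk RNA. Within groups the libraries correlated at 0.960 to 0.974 in U87 and 0.959 to 0.974 in U251 (Pearson's r across genes, which are not independent replicates), and no libraries were identical. Library measures moved with the groups in U87, where 24223 to 25459 genes were above 0 TPM in Untreated and 26096 to 28649 in the other groups. At D28WO in U87, mitochondrial transcripts held 0.578% to 0.591% of the summed TPM and the 100 highest genes 5.96% to 6.30%, against 0.704% to 0.760% and 6.80% to 7.76% in Untreated. In U251 the genes above 0 TPM numbered 24450 to 27187 in Untreated and 25633 to 30246 in the other groups. The part of these measures in the results was not tested. A set of 8 IFN-γ target genes rose in U87 at D3, D28 and D28WO (8 of 8 each), but 0 of 8 passed the test at D14 (limma, with 0 of 8 at an unadjusted p under 0.05). In U251, 8, 7, 8 and 8 of the 8 rose at D3, D14, D28 and D28WO. Their median log2 fold change in U251 was 1.98 at D3, 1.09 at D14 and 2.00 at D28, and 7 of the 8 fell from D3 to D14. The D28WO libraries of both lines, although 14 days without IFN-γ by their labels, had median log2 fold changes of these genes of 1.86 in U87 and 2.10 in U251, beside 1.80 and 2.00 at D28. In U87 none of these targets thus passed at D14, although the libraries are labelled as exposed to IFN-γ. In neither line did the D28WO values of these targets lie at the Untreated level. Whether these labels are right was not tested, and all values of D14 and D28WO below are those of the libraries so labelled. Among glial markers, SOX2, a glioma stem cell factor, had a median of 135 TPM in U251 and of 0.106 TPM in U87, where it was listed at 0 in 5 of 13 libraries, and GFAP, the astrocyte filament protein, had medians of 574 and 9.36 TPM. S100B, a calcium-binding protein of astrocytes, had medians of 67.01 and 1.305 TPM in the same order. The medians in U87 and U251 were 1214 and 817 TPM for VIM, 598 and 514 TPM for CD44, 190.5 and 254 TPM for CD99 and 39.6 and 89.5 TPM for NES. Of the leukocyte list, PTPRC and CD3E had medians of at most 0.181 TPM and ITGAM of at most 0.256 TPM in either line, while CD68, a lysosomal protein of macrophages, had medians of 297 TPM in U87 and 112 TPM in U251. The summed TPM of 866 olfactory receptor genes, most of which are little expressed outside the nose, was 28.8 to 43.7 in Untreated U87 libraries and 60.7 to 101 in the others, and 56.9 to 77.7 in Untreated and 62.5 to 163 in the other U251 libraries. Its part in the results was not tested, and the lowest level of the 33 genes in any library was 8.75 TPM (ERN1).

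Promoter sequences were read first, because the 2 sides of the response are known to use different DNA elements. The windows, from 250 bases before to 50 bases after a gene's start, were taken from RefSeq (GRCh38.p14) and matched 32 of the 33 genes. Only the first listed window of each of the 32 genes was searched, so other starts of a gene were not covered. The 35116 promoters used for comparison count every listed window. The ER stress response element ERSE, written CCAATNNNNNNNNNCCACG and searched on both strands, was found in 4 of the 32 (HSPA5, HSP90B1, CRELD2 and XBP1) and in 0.0769% of all 35116 promoters. Its compact form ERSE-II, ATTGG followed after 1 further base by CCACG, was found in SDF2L1, HYOU1 and HERPUD1 and in 0.0541% of all promoters. The C/EBP-ATF element TGATGNAA, to which ATF4 binds with a partner, was found in ATF3, CHAC1, ASNS and HERPUD1 and in 3.62% of all promoters. The UPRE core TGACGTG was found in HYOU1 alone among the 32 and in 1.97% of all promoters. The IFN-γ-activated site GAS, TTCNNNGAA, and the ISRE core, GAAA repeated after 2 further bases, were in 0 of the 32 windows, against 7.66% and 3.57% of all promoters. A match describes these letters in this window and is no evidence of binding. No motif was allowed to count as another, and in HYOU1 the UPRE core overlaps an ERSE-II on the opposite strand.

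The following 6 promoters are shown because their genes took different courses: HSPA5, CRELD2, SDF2L1 and HYOU1 on the ER side and CHAC1 and ASNS on the ATF4 side. Each is written 5′ to 3′ on the gene's own strand, with matches to the motifs above in capitals, and a match on the opposite strand appears as its reverse complement. The HSPA5 window lies at chr9:125241294-125241593 on the minus strand, with its ERSE beginning at position -66 from the gene's start. The CRELD2 window lies at chr22:49918384-49918683 on the plus strand, with an ERSE on the opposite strand from position -80. The SDF2L1 window lies at chr22:21642052-21642351 on the plus strand, with an ERSE-II on the opposite strand from position -188. The HYOU1 window lies at chr11:119057156-119057455 on the minus strand, with ERSE-II matches on the opposite strand from positions -185 and -79 and a UPRE core from position -188. The CHAC1 window lies at chr15:40953221-40953520 on the plus strand, with a C/EBP-ATF element on the opposite strand from position -209. The ASNS window lies at chr7:97872359-97872658 on the minus strand, with a C/EBP-ATF element from position -68.
HSPA5: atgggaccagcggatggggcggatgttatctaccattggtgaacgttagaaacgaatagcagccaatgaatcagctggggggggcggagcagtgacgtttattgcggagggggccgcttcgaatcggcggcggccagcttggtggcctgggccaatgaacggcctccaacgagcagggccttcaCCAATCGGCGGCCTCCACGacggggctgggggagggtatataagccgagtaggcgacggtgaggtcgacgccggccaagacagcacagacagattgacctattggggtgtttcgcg
CRELD2: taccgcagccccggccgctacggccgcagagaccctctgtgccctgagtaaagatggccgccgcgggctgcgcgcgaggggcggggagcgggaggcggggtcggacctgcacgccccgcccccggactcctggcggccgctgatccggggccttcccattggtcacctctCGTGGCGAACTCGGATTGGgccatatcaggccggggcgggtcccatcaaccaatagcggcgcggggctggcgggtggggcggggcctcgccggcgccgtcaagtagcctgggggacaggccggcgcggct
SDF2L1: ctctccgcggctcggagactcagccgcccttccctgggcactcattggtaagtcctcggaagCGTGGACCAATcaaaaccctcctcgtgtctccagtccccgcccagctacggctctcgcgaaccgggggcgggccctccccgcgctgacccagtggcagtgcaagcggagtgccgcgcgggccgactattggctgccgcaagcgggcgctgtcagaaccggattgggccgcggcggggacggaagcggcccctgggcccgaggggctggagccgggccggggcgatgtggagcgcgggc
HYOU1: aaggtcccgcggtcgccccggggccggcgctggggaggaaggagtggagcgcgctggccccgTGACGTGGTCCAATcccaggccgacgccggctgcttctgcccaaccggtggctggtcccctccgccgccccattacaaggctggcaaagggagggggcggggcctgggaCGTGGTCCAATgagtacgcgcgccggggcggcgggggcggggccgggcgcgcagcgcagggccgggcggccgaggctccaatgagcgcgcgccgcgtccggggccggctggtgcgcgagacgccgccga
CHAC1: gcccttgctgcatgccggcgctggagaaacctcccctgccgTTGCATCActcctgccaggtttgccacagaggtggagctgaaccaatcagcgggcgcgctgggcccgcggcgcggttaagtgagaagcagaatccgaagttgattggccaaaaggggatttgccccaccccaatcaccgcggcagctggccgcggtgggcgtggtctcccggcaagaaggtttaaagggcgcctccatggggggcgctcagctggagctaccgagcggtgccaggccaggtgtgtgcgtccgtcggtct
ASNS: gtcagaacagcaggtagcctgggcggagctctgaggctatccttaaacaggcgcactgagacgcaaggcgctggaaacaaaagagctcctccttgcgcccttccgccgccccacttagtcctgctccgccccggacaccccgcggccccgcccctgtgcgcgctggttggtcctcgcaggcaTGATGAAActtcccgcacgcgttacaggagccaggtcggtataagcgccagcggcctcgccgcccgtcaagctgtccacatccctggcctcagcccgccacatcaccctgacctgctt

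In both lines at D3, D28 and D28WO, most of the ER chaperones that passed the test fell and most of the ATF4-side genes that passed rose. At D14 in U87, 0 of 11 chaperones and 1 of 15 ATF4-side genes passed. After 3 days of IFN-γ, the ATF4-side genes of U251 were higher (14 of 15 rose) and most ER chaperones lower (9 of 11 fell). In U87, with 2 libraries at D3, 8 of 15 ATF4-side genes rose and 7 of 11 chaperones fell. These falls were lost without D3 replicate 2, which leaves a single library at D3. Tests used limma with Benjamini-Hochberg adjustment over all genes of a line, and a gene is said to rise or fall where its adjusted p was under 0.05. Of the 33 genes, 17 passed at D3 in U87 (51.5%, beside 16.7% of all genes tested), 2 at D14 (5.16% of all genes), 19 at D28 (23.8%) and 29 at D28WO (42% of all genes), each against Untreated. In U251, 30 passed at D3 (40.9% of all genes tested), 17 at D14 (21.2%), 27 at D28 (40.6%) and 29 at D28WO (27.7%). A log2 fold change over 1 in either direction was reached as well by 4, 1, 4 and 11 of the 33 genes in U87 (6.23%, 2.1%, 7.38% and 14.9% of all genes) and by 12, 3, 11 and 12 in U251 (14.3%, 5.76%, 15.2% and 7.45% of all genes), in the order D3, D14, D28 and D28WO.

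By direction, 10 of the 33 genes rose and 7 fell at D3 in U87 (12.4% and 4.28% of all genes), 1 rose and 1 fell at D14 (4.14% and 1.02%), 11 rose and 8 fell at D28 (17.2% and 6.55%) and 22 rose and 7 fell at D28WO (28.6% and 13.4%). In U251, 19 rose and 11 fell at D3 (24.9% and 16% of all genes), 13 rose and 4 fell at D14 (13.8% and 7.31%), 17 rose and 10 fell at D28 (25.9% and 14.7%) and 19 rose and 10 fell at D28WO (14.3% and 13.4%). At D14 in U87 the share of the 33 genes in each direction was near that of all genes. At D3, 10 genes rose in both lines (DNAJB9, ERN1, ATF3, DDIT3, NUPR1, TRIB3, PPP1R15A, SESN2, CHAC1 and ASNS) and 7 fell in both (HSPA5, HSP90B1, DNAJB11, CRELD2, MANF, PDIA4 and PDIA6).

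**Figure D1:**
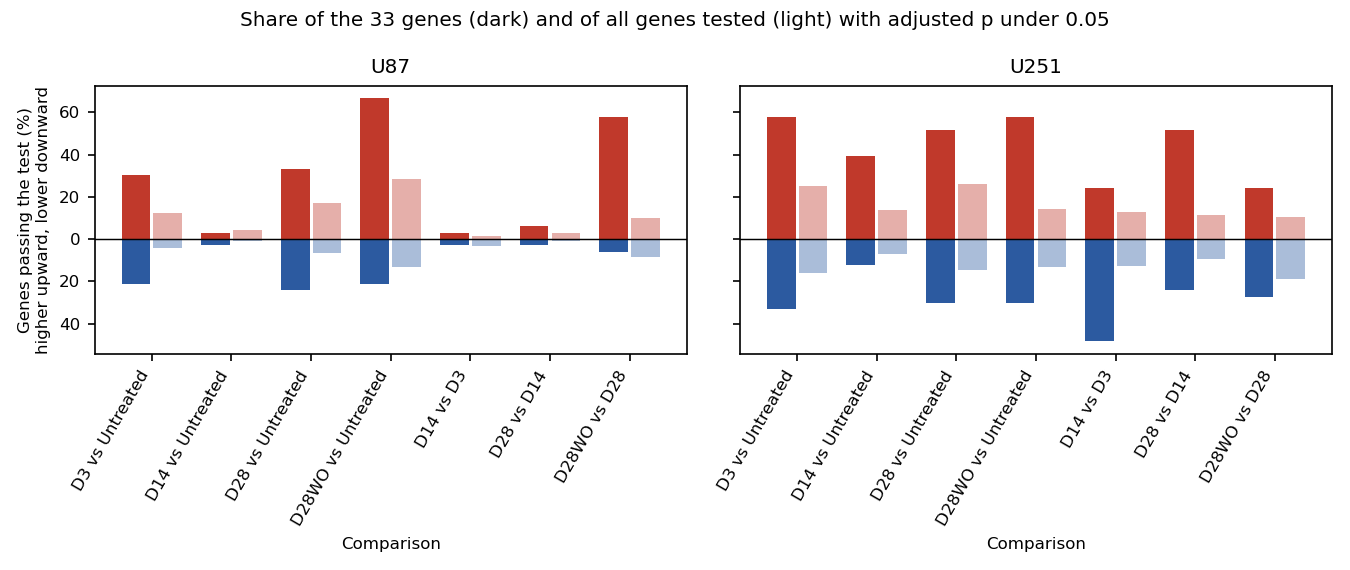
Share of the 33 genes (dark bars) and of all genes tested (light bars) with an adjusted p under 0.05 in each comparison, higher upward in red and lower downward in blue, in percent. Counted in either direction, the share of the 33 genes was nearest to that of all genes at D14 in U87, 6.06% beside 5.16%.

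Between groups, the counts of U87 rested on few libraries at the early times. Without D3 replicate 2, most of the calls at D3 were lost, and without D3 replicate 3 fewer were. Either fit leaves 1 library at D3, so that the spread comes from the other groups. When Untreated replicate 3 was left out, 11 genes passed at D3. With only the D3 and Untreated libraries in the fit, 6 genes passed at D3 in U87 and none of them was a chaperone. A fit of the Untreated, D3 and D28 libraries alone, chosen after seeing the IFN-γ targets at D14 in U87 and at D28WO, gave 14 genes at D3 and 16 at D28 in U87 and 29 and 27 in U251. The median log2 fold change of all genes against Untreated was 0.20, 0.15, 0.19 and 0.25 in U87 and 0.13, 0.096, 0.16 and 0.015 in U251 (D3, D14, D28 and D28WO), so the median of the 11 chaperones at D3 lay 0.54 (U87) and 0.77 (U251) below that of all genes, and the median of the 15 ATF4-side genes 0.15 and 1.37 above it. The split of higher and lower calls moved with the scaling in U87: it was 10 and 7 at D3 here, 7 and 10 with median-ratio size factors and 10 and 1 with quantile normalization, and at D28 it was 11 and 8, 8 and 11, and 13 and 3. With median-ratio size factors the split at D28WO in U87 went from 22 and 7 to 14 and 8, and at D14 in U251 from 13 and 4 to 11 and 6. The medians of the chaperones stayed negative and those of the ATF4 side positive in all 4 comparisons with Untreated under every scaling tried, and no call of a single gene changed direction.

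**Figure D2:**
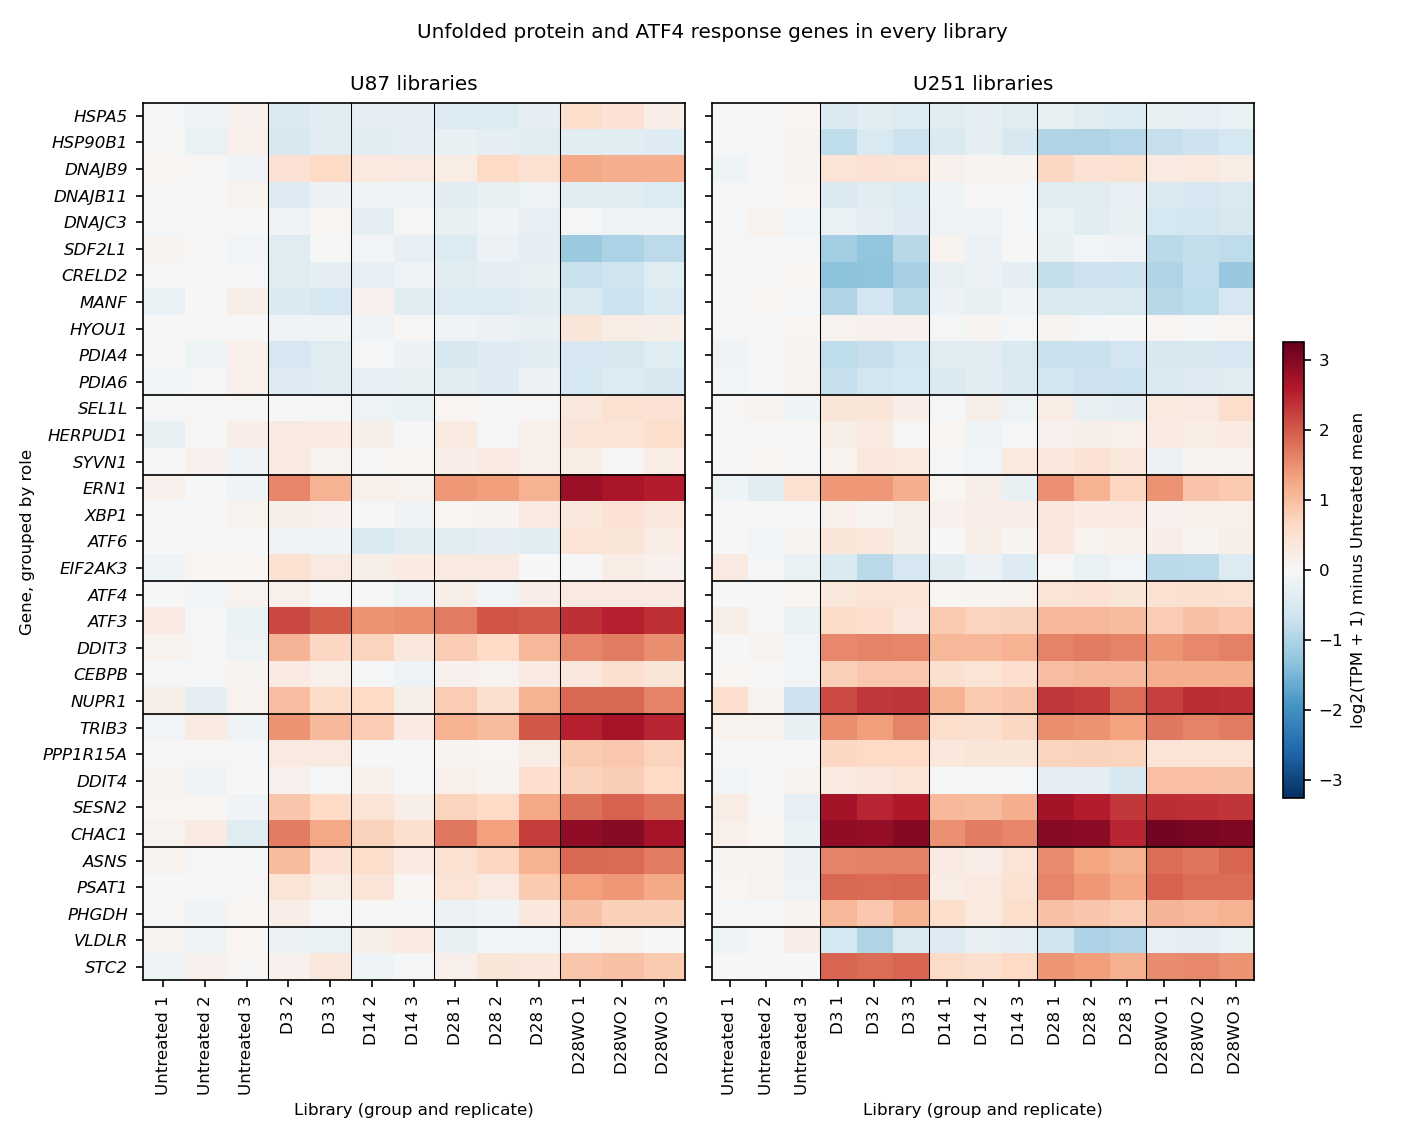
Log2(TPM + 1) minus the mean of the Untreated libraries of the same line, for each of the 33 genes (rows, grouped by role) in each library (columns). Red is higher and blue lower than Untreated, and CHAC1, SESN2 and NUPR1 are deepest in U251 while ERN1, TRIB3 and CHAC1 are deepest in the D28WO libraries of U87.

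**Figure D3:**
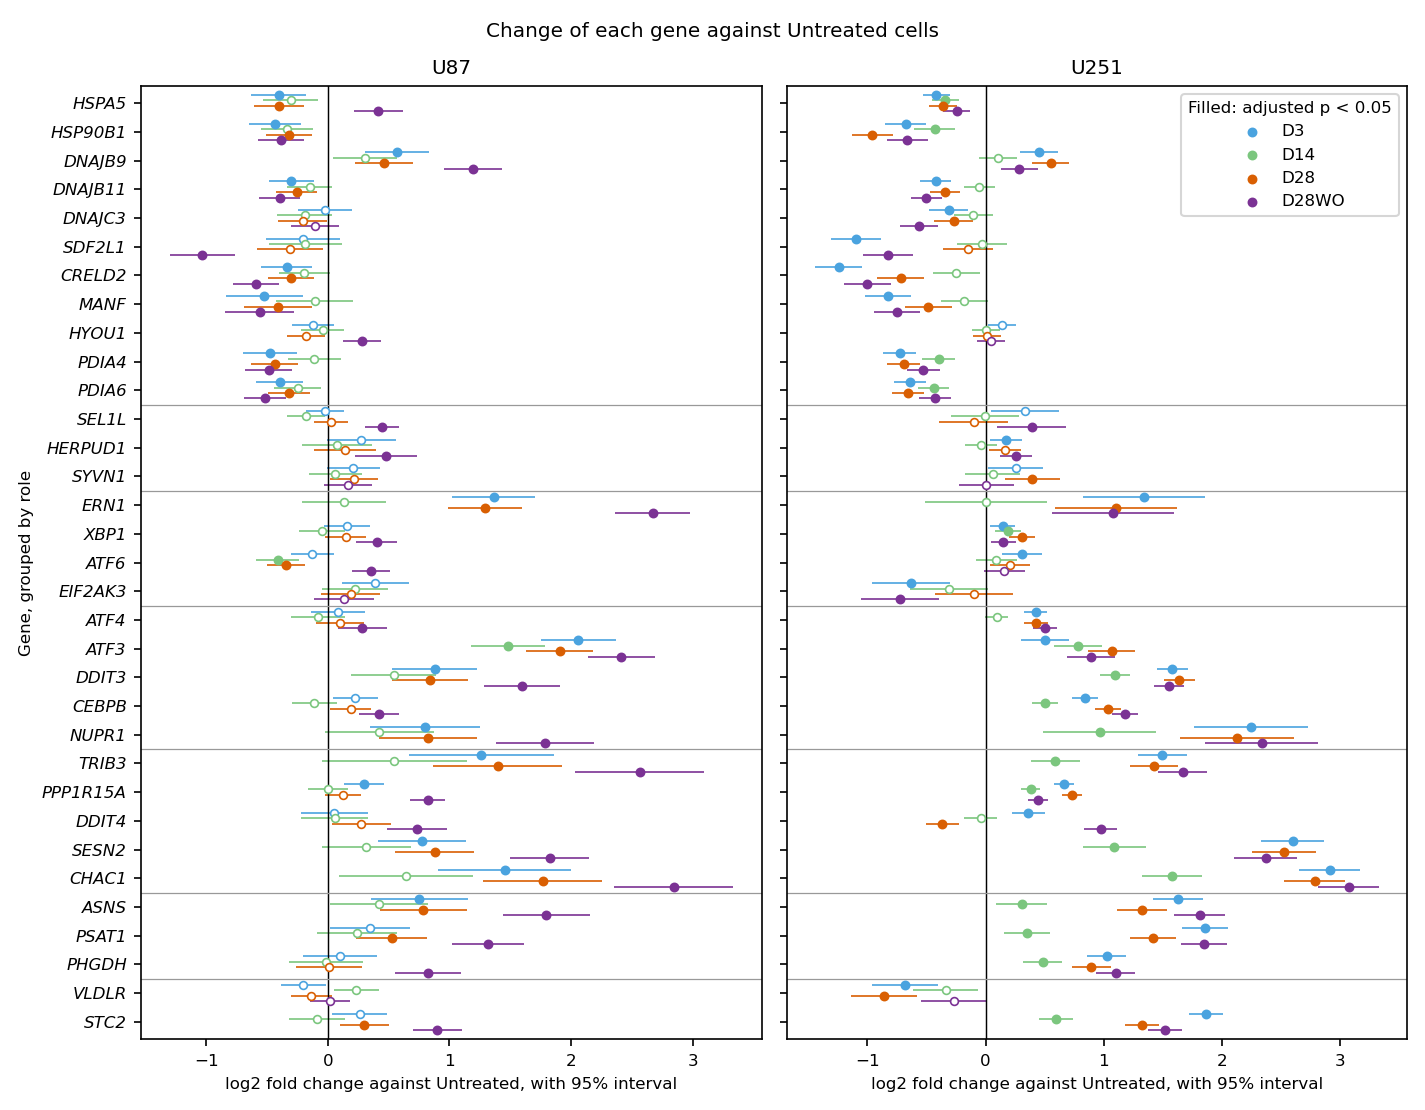
Log2 fold change of each gene against Untreated with its 95% interval, at D3, D14, D28 and D28WO, in U87 (left) and U251 (right). Filled points passed the test, and most points of the chaperones lie left of 0 and most points of the ATF4-side genes right of it.

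HSPA5 (BiP), the main chaperone of the ER lumen and the usual readout of the unfolded protein response, was lower with IFN-γ in both lines. In U87 its level was 341, 319.7 and 385 TPM in the Untreated libraries, 252 and 274 at D3, 284 and 279 at D14, 253, 257 and 279.9 at D28 and 513, 481 and 404 at D28WO. In U251 it was 360.1, 371 and 386 TPM in the Untreated libraries, 270.3, 292 and 274 at D3, 294, 304 and 283 at D14, 313, 282 and 275 at D28 and 314, 310.4 and 318 at D28WO. Every library under IFN-γ lay below every Untreated library in both lines, and the D28WO libraries lay above the Untreated ones in U87 but below them in U251. HSPA5 fell at D3 by 0.40 in U87 and by 0.42 in U251 on the log2 scale (limma adjusted p 0.022 and 2.95e-05). Against Untreated, D28WO had a log2 fold change of 0.41 ± 0.09 (SE) in U87 and -0.24 ± 0.05 in U251 (limma adjusted p 0.00376 and 0.00353). The U87 call at D3 was lost without Untreated replicate 3 or either D3 library. With median-ratio size factors HSPA5 at D28WO in U87 had 0.18 and did not pass. With quantile normalization the calls of HSPA5 at D3 and D28 in U87 (-0.19 each) and at D28 and D28WO in U251 (-0.14 and -0.13) were lost.

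CRELD2 and SDF2L1, ER proteins that assist folding, were the chaperones past a log2 fold change of 1 against Untreated in the downward direction, CRELD2 in U251 at D3 and D28WO and SDF2L1 in U251 at D3 and in U87 at D28WO. CRELD2 in U251 was at 145, 141 and 151 TPM in Untreated, 57.1, 58.1 and 68.4 at D3, 123, 127 and 119 at D14, 85.3, 90.5 and 89 at D28 and 73.2, 83.3 and 62.1 at D28WO. All D14 libraries of U251 lay between the Untreated and the other libraries, and the log2 fold change was -1.24 ± 0.09 (SE) at D3 and -1.002 ± 0.09 at D28WO (limma adjusted p 1.69e-07 and 2.27e-06). In U87, CRELD2 went from 153, 147 and 146 TPM in Untreated to 88.9, 94.3 and 113 at D28WO, without overlap, a log2 fold change of -0.59 ± 0.09 (limma adjusted p 0.00023).

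SDF2L1 followed another course in time. In U251 it stood at 68.2, 66.5 and 63.4 TPM in Untreated, 29.5, 26.7 and 35 at D3, 71.3, 57.9 and 65 at D14, 55.4, 62.1 and 60.5 at D28 and 35.2, 38.3 and 36.6 at D28WO. It was low at D3 and D28WO, overlapped with Untreated at D14, and lay just below it at D28, where its log2 fold change of -0.15 ± 0.10 did not pass (limma adjusted p 0.24). It fell at D3 by 1.10 and at D28WO by 0.83 on the log2 scale in U251 (SE 0.10 each, limma adjusted p 9.79e-07 and 2.32e-05). In U87, SDF2L1 was at 88.5, 81.9 and 78.4 TPM in Untreated and 35.1, 40.1 and 45.3 at D28WO, a log2 fold change of -1.03 ± 0.12 (limma adjusted p 5.54e-05), and was the chaperone with the largest fall there.

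In the other comparisons with Untreated in which a chaperone fell, the lowest log2 fold change was that of HSP90B1 in U251 at D28, PDIA6 in U251 at D14, MANF in U87 at D3 and PDIA4 in U87 at D28. HSP90B1 (GRP94, the ER paralog of HSP90) was the most abundant of the 33 genes in the Untreated libraries of both lines on average, with 627, 637 and 712 TPM in Untreated U251 and 335, 333 and 346 at D28, a log2 fold change of -0.96 ± 0.08 (limma adjusted p 4.54e-07). MANF, a secreted factor that binds HSPA5, and the disulfide isomerases PDIA4 and PDIA6 fell in both lines at D3, D28 and D28WO, with log2 fold changes from -0.83 (MANF, U251 D3) to -0.32 (PDIA6, U87 D28), and the calls of MANF at D3 and D28 in U87 were lost in 4 and 9 of the 13 fits that left out 1 library. DNAJB11, an HSPA5 co-chaperone, fell at the same times in both lines by 0.26 to 0.50 on the log2 scale. DNAJC3, an inhibitor of PERK and co-chaperone of HSPA5, passed the test in U251 (log2 fold changes of -0.31 at D3, -0.27 at D28 and -0.56 at D28WO), and in U87 its values against Untreated ranged from -0.21 to -0.021 without passing. In U87 the calls of the chaperones at D3 and D28 depended on single libraries and on the scaling: with quantile normalization 1 of 11 fell at D3 and 2 of 11 at D28, and with median-ratio size factors 8 and 10 did.

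DNAJB9 and HYOU1 took other courses than most of this class. DNAJB9 (ERdj4), a co-chaperone that restrains IRE1 and is a known target of spliced XBP1, was at 26.5, 26.3 and 23.4 TPM in Untreated U87, 35.7 and 40.7 at D3, 31.7 and 31.5 at D14, 30.2, 40.2 and 36.2 at D28 and 61.2, 58.3 and 58.4 at D28WO. Each exposed group lay above Untreated, and DNAJB9 rose at D3, D28 and D28WO, by 1.19 ± 0.11 at D28WO (log2, SE, limma adjusted p 8.2e-06). In U251 it rose at the same times, by 0.45, 0.55 and 0.28. HYOU1, the ER chaperone whose promoter holds ERSE-II at 2 places, had values against Untreated from -0.18 to 0.28 in U87 and passed the test only at D28WO (limma adjusted p 0.00855), and in U251 its log2 fold changes were at most 0.14 in size, none of which passed. In U87 the call of HYOU1 at D28WO was lost with median-ratio size factors (0.044), as was that of DNAJB9 at D28 (0.27), and with quantile normalization DNAJB9 passed at neither D3 nor D28 (0.30 and 0.19).

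Genes of ER-associated degradation, which carries misfolded proteins out to the proteasome, changed little. HERPUD1, a scaffold of this machinery, rose at D28WO in both lines, by 0.48 ± 0.12 in U87 (log2, SE, limma adjusted p 0.00609) and 0.26 ± 0.06 in U251 (limma adjusted p 0.00765). It also passed in U251 at D3 (0.17), a call lost in 12 of the 15 fits that left out 1 library. SEL1L, the partner of the ubiquitin ligase SYVN1, rose at D28WO by 0.45 in U87 and 0.39 in U251, and the U251 call was lost in 10 of the 15 fits that left out 1 library. SYVN1 passed against Untreated only at D28 in U251, from 80.9, 83.7 and 76.2 TPM to 102, 112 and 104 TPM, a log2 fold change of 0.40 ± 0.11 (limma adjusted p 0.00984). These calls moved with the scaling. With median-ratio size factors HERPUD1 and SEL1L did not pass at D28WO in U87 (0.24 and 0.21), nor did HERPUD1 at D3 (0.067), SEL1L at D28WO (0.36) and SYVN1 at D28 (0.28) in U251.

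Among the sensors, ERN1 (IRE1) had the largest change. Its level in U87 was 10.8, 9.53 and 8.75 TPM in Untreated, 31 and 22.5 at D3, 10.9 and 10.5 at D14, 27.1, 26.4 and 22.2 at D28 and 73.1, 66.6 and 61.6 at D28WO. In U251 it was 12.7, 10.6 and 20.2 TPM in Untreated, 38.8, 39.1 and 33 at D3, 14.7, 16 and 11.6 at D14, 40.6, 32 and 23.3 at D28 and 40, 27.7 and 25.8 at D28WO. The D14 libraries overlapped with Untreated in both lines, while every D3, D28 and D28WO library lay above every Untreated library. Its log2 fold changes in U87 were 1.36 ± 0.16, 1.29 ± 0.14 and 2.67 ± 0.14 for these groups in order (SE, limma adjusted p 0.000176, 7.89e-05 and 1.44e-07). In U251 they were 1.34 ± 0.24, 1.10 ± 0.24 and 1.08 ± 0.24 (limma adjusted p 0.000508, 0.00221 and 0.00394). From D3 to D14 it fell by 1.23 in U87 and by 1.34 in U251 on the log2 scale (limma adjusted p 0.00137 and 0.00105).

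XBP1, the target that IRE1 splices, rose in U251 in all 4 comparisons with Untreated by 0.14 to 0.31 on the log2 scale, with the call lost in 5, 2 and 6 of the 15 fits that left out 1 library at D3, D14 and D28WO. It rose in U87 only at D28WO by 0.40 ± 0.08 (limma adjusted p 0.00144). With median-ratio size factors XBP1 did not pass at D28WO in U87 (0.17) nor at D3, D14 and D28WO in U251 (0.038, 0.097 and 0.12), and its value at D28 in U251 was 0.19. Gene-level TPM does not separate spliced from unspliced XBP1. ATF6 in U87 was at 73, 72.6 and 73.1 TPM in Untreated, 51.7 and 57.5 at D14, 56.2, 59.7 and 55.8 at D28 and 99, 95.4 and 86.6 at D28WO. It lay below Untreated at D14 and D28 and above it at D28WO, with log2 fold changes of -0.41 ± 0.08, -0.34 ± 0.07 and 0.36 ± 0.07 (limma adjusted p 0.0196, 0.00632 and 0.0021), although the D14 call was lost without either D14 library and the D28WO call with median-ratio size factors (0.12). In U251 ATF6 rose at D3 by 0.31 ± 0.08 (limma adjusted p 0.00687, lost with median-ratio size factors at 0.20) and passed at no other time against Untreated. EIF2AK3 (PERK) was at 68.3, 53 and 47.9 TPM in Untreated U251, 40.2, 29.9 and 38 at D3 and 29.7, 30.5 and 40.8 at D28WO. It fell at both times without overlap, by 0.63 and 0.73 on the log2 scale (SE 0.15, limma adjusted p 0.00453 and 0.00263), and passed no comparison in U87.

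ATF4 messenger RNA itself, whose product is controlled mainly at translation, moved little beside its targets. In U251 it was at 144, 142 and 155 TPM in Untreated, 189, 201 and 202 at D3, 153, 156 and 160.3 at D14, 196, 203 and 194 at D28 and 206, 210.4 and 208 at D28WO. The D14 libraries overlapped with Untreated and the other groups lay above, with log2 fold changes of 0.42 ± 0.05, 0.43 ± 0.05 and 0.50 ± 0.05 (limma adjusted p 6.78e-06, 6.11e-06 and 2.25e-06). In U87 it passed only at D28WO, by 0.28 ± 0.09 (limma adjusted p 0.0257), a call that was lost in 5 of the 13 fits that left out 1 library and with median-ratio size factors (0.047).

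Of the transcription factors that work with ATF4, ATF3 led in U87. ATF3 stood at 35.1, 28.1 and 25.1 TPM in Untreated U87, 133 and 117 at D3, 81.8 and 84.6 at D14, 95.4, 123 and 119.8 at D28 and 154, 171 and 154 at D28WO. All exposed libraries lay above Untreated, and it was the only one of the 33 genes that rose at D14 in U87 (1.48 ± 0.14, limma adjusted p 0.000563), while D3, D28 and D28WO gave 2.06 ± 0.14, 1.91 ± 0.13 and 2.41 ± 0.13 (limma adjusted p 2.37e-06, 1.27e-06 and 1.33e-07). In U251 ATF3 was at 90.1, 81.9 and 67.6 TPM in Untreated and 168, 169 and 164 at D28, a log2 fold change of 1.07 ± 0.09 (limma adjusted p 7.68e-07).

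DDIT3 (CHOP), the factor linked to death under lasting ER stress, rose in U251 in all 4 comparisons with Untreated. Its levels there were 51.3, 54.7 and 48.1 TPM in Untreated, 152, 158 and 156 at D3, 109.8, 109 and 113 at D14, 159.7, 168 and 158 at D28 and 142, 155 and 161 at D28WO. The groups at D3, D28 and D28WO overlapped each other, and D14 lay between them and Untreated, with log2 fold changes of 1.58 ± 0.06, 1.10 ± 0.06, 1.64 ± 0.06 and 1.55 ± 0.06 (limma adjusted p 1.7e-10, 2.53e-08, 9.62e-11 and 2.25e-10). In U87, DDIT3 was at 62.5, 59.5 and 51.8 TPM in Untreated and 176, 189.6 and 166 at D28WO, a log2 fold change of 1.60 ± 0.14 (limma adjusted p 7.05e-06).

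NUPR1, a small stress-induced nuclear protein, was at 42.5, 31.7 and 17.9 TPM in Untreated U251 and at 129, 145 and 150.2 at D3, 64.7, 53.4 and 54.8 at D14, 147, 142 and 105 at D28 and 139, 158 and 154 at D28WO. No exposed library overlapped with Untreated, and the log2 fold change was 2.25 ± 0.22 at D3 and 2.34 ± 0.22 at D28WO (limma adjusted p 2.78e-06 and 3.11e-06). In U87 it rose at D28WO by 1.78 ± 0.18 (limma adjusted p 1.94e-05). CEBPB, a partner that pairs with ATF4 on DNA, rose in U251 in all 4 comparisons, from 82.5, 80.2 and 74.6 TPM in Untreated to 181, 179.6 and 179.9 at D28WO, a log2 fold change of 1.18 ± 0.05 (limma adjusted p 7.7e-10), and in U87 only at D28WO by 0.42 ± 0.08 (limma adjusted p 0.000949), a call lost with median-ratio size factors (0.18).

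CHAC1, an enzyme that degrades glutathione and a late target of the ATF4 branch, had the largest log2 fold change against Untreated of the 33 genes in each line. In U87 its levels were 30, 33.6 and 20.7 TPM in Untreated, 89.3 and 66.8 at D3, 47.4 and 40 at D14, 92, 71.3 and 136 at D28 and 209.7, 222 and 183 at D28WO. In U251 they were 22.6, 21.1 and 17.2 TPM in Untreated, 156, 153 and 167 at D3, 58.3, 65.9 and 62.6 at D14, 164, 159.6 and 116 at D28 and 181, 176 and 173 at D28WO. All exposed libraries lay above Untreated in both lines, with D14 the lowest exposed group, and at D28 replicate 3 was the highest in U87 and the lowest in U251. The log2 fold changes were 1.45 ± 0.25, 1.77 ± 0.22 and 2.84 ± 0.22 at D3, D28 and D28WO in U87 (limma adjusted p 0.00293, 0.000261 and 2.87e-06), while D14 did not pass (0.64 ± 0.25, limma adjusted p 0.158). In U251 they were 2.91 ± 0.12, 1.58 ± 0.12, 2.78 ± 0.12 and 3.07 ± 0.12 (limma adjusted p 3.79e-10, 8.37e-07, 5.45e-10 and 2.42e-10).

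SESN2 and DDIT4 encode inhibitors of the growth kinase mTORC1, and this inhibition limits growth under stress. SESN2 in U251 was at 17.3, 14.9 and 11.8 TPM in Untreated, 100.2, 85.3 and 93.5 at D3, 31.2, 30.5 and 34.2 at D14, 101, 90.3 and 75.2 at D28 and 81, 79.3 and 76.9 at D28WO. It lay far above Untreated from D3 on and dipped at D14 without reaching it, with log2 fold changes of 2.60 ± 0.12, 1.09 ± 0.12, 2.52 ± 0.12 and 2.37 ± 0.12 (limma adjusted p 1.94e-09, 3.83e-05, 2.46e-09 and 7.12e-09). In U87 it was at 47.3, 46.6 and 41.2 TPM in Untreated and 159, 173 and 155 at D28WO, a log2 fold change of 1.82 ± 0.15 (limma adjusted p 3.57e-06).

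DDIT4 (REDD1) in U251 was at 123, 131 and 141 TPM in Untreated, 162, 169 and 177 at D3, 127, 128 and 129 at D14, 106, 107 and 92.2 at D28 and 260.1, 261 and 257 at D28WO. It was above Untreated at D3, below it at D28 and above every other library at D28WO. The log2 fold changes were 0.36 ± 0.06, -0.37 ± 0.06 and 0.97 ± 0.06 against Untreated (limma adjusted p 0.000492, 0.000439 and 7.94e-08) and 1.34 ± 0.06 from D28 to D28WO (limma adjusted p 1.89e-08). In U87, DDIT4 passed against Untreated only at D28WO, where it rose by 0.73 ± 0.11 (limma adjusted p 0.000331).

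TRIB3, a pseudokinase that feeds back on ATF4, was at 18.7, 24.5 and 17.6 TPM in Untreated U87 and at 57 and 42.9 at D3, 45.2, 41.9 and 84.6 at D28 and 121, 134 and 116 at D28WO. These groups did not overlap with Untreated, and the log2 fold change was 1.26 ± 0.27, 1.40 ± 0.24 and 2.56 ± 0.24 (limma adjusted p 0.01, 0.00219 and 1.08e-05). In U251 it rose in all 4 comparisons, by 1.496 ± 0.10 at D3 and 1.67 ± 0.10 at D28WO (limma adjusted p 3.69e-08 and 1.81e-08). PPP1R15A (GADD34), the phosphatase subunit that reverses phosphorylation of eIF2α, rose in all 4 comparisons of U251 by 0.38 to 0.73, and in U87 at D3 by 0.30 and at D28WO by 0.82. The U87 call at D3 was lost without Untreated replicate 3 or either D3 library and, at 0.11 for PPP1R15A, with median-ratio size factors.

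**Figure D4:**
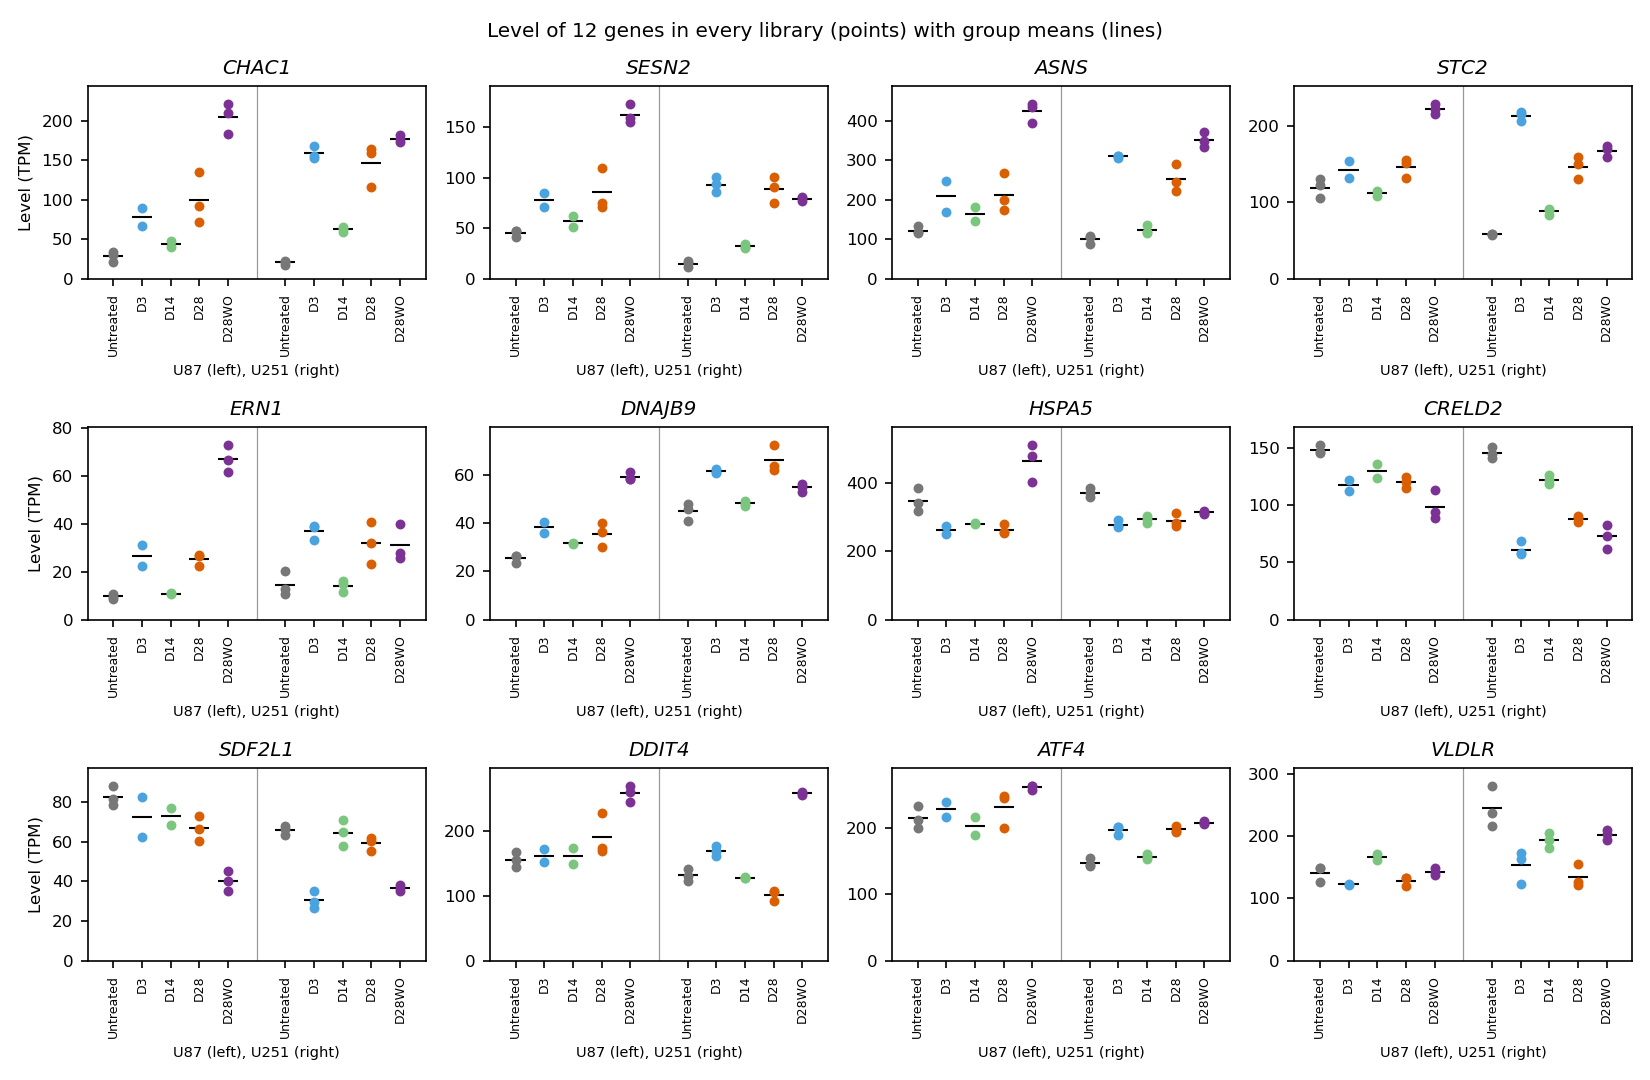
Level in TPM of 12 of the genes in every library (points, coloured by group) with the mean of each group (lines), U87 left and U251 right of the grey line in each panel. CHAC1, SESN2, ASNS and STC2 are lower at D14 than at D3 and D28 in U251, and DDIT4 is lowest at D28 and highest at D28WO there.

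All 3 genes of amino acid synthesis rose in U251 at each time. ASNS, asparagine synthetase, was at 105, 108 and 87.3 TPM in Untreated U251, 307, 311 and 312 at D3, 119, 116 and 136 at D14, 291, 245 and 222 at D28 and 351, 335 and 372 at D28WO. Its D14 libraries lay only just above Untreated, with a log2 fold change of 0.30 ± 0.10 (limma adjusted p 0.0427, lost in 9 of the 15 fits that left out 1 library and with either other scaling), beside 1.63 ± 0.10, 1.32 ± 0.10 and 1.81 ± 0.10 for D3, D28 and D28WO (limma adjusted p 2.16e-08, 1.54e-07 and 1.06e-08). In U87 ASNS was at 132, 115 and 118 TPM in Untreated, 248 and 170.0 at D3, 181 and 147 at D14, 173, 199.6 and 268 at D28 and 445, 436 and 395 at D28WO. The D28WO libraries stood far above all others, with a log2 fold change of 1.80 ± 0.16 (limma adjusted p 8.14e-06).

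PSAT1 and PHGDH, enzymes of serine synthesis, rose in U251 in all 4 comparisons with Untreated. PSAT1 in U251 was at 60.3, 62.1 and 51.5 TPM in Untreated and 213, 210.3 and 212 at D3, which was 1.86 ± 0.09 on the log2 scale (limma adjusted p 1.95e-09). PHGDH in U251 was at 209.5, 211 and 228 TPM in Untreated and 455, 396 and 474 at D3, which was 1.02 ± 0.08 on the log2 scale (limma adjusted p 1.74e-07). Neither gene's D3 libraries overlapped with Untreated. In U87 at D28WO, PSAT1 rose by 1.32 ± 0.13 and PHGDH by 0.83 ± 0.12 (limma adjusted p 1.77e-05 and 0.000283). At D28 in U87, PSAT1 rose by 0.52 (a call lost with median-ratio size factors, at 0.33), while PHGDH did not pass and had a 95% interval of the log2 fold change from -0.26 to 0.28. The difference between these genes was not tested.

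Of the targets at the surface and outside the cell, STC2, a secreted glycoprotein, rose in all 4 comparisons of U251, and VLDLR, a lipoprotein receptor, fell at D3 and D28. STC2 in U251 was at 57.1, 57.6 and 58.3 TPM in Untreated, 215, 206 and 217 at D3, 89.8, 83 and 90.3 at D14, 158, 149.6 and 131 at D28 and 169.8, 173 and 159 at D28WO. Each exposed group lay apart from Untreated, with log2 fold changes of 1.87 ± 0.07, 0.60 ± 0.07, 1.32 ± 0.07 and 1.52 ± 0.07 (limma adjusted p 9.38e-11, 3.18e-05, 3.05e-09 and 1e-09). In U87 STC2 rose at D28 by 0.30 (a call lost in 8 of the 13 fits that left out 1 library and, at 0.11, with median-ratio size factors) and at D28WO by 0.90 ± 0.09 (limma adjusted p 2e-05). VLDLR in U251 was at 217, 237 and 281 TPM in Untreated, 163, 122 and 173 at D3 and 155, 122 and 126 at D28, and fell by 0.68 and 0.86 on the log2 scale (SE 0.13, limma adjusted p 0.000739 and 0.000114). In U87 it passed no comparison with Untreated.

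In U251 the changes were smaller at D14 than at D3 and D28 for most ATF4-side genes. Of the 15 ATF4-side genes, 13 fell from D3 to D14 and 13 rose from D14 to D28. For 11 of the 15, the D14 libraries lay above all Untreated and below all D3 and D28 libraries. The share of all genes with this order was not counted. Among all 33 genes, 24 passed from D3 to D14 (25.5% of all genes tested), 8 higher and 16 lower (12.8% and 12.6%), and 8 of them also passed a log2 fold change of 1 (6.49%). From D14 to D28, 25 passed (20.8% of all genes), 17 higher and 8 lower (11.3% and 9.48%), and 6 also passed a log2 fold change of 1 (5.84%). The falls from D3 to D14 were largest for SESN2 and PSAT1, each with -1.51 on the log2 scale (1.51e-06 and 7.47e-08, limma adjusted p). Of the 11 chaperones, 7 rose from D3 to D14 and DNAJB9 fell (-0.35), with SDF2L1 at 1.07 ± 0.10 and CRELD2 at 0.995 ± 0.09 (limma adjusted p 4.04e-06 and 4.57e-06). In U87, 2 of the 33 genes passed from D3 to D14 (ERN1 lower and VLDLR higher, beside 4.79% of all genes, 1.47% higher and 3.32% lower), and ERN1 also passed a log2 fold change of 1 (2.63% of all genes). From D14 to D28, 3 passed (ERN1 and CHAC1 higher and VLDLR lower, beside 4.06% of all genes, 2.94% higher and 1.12% lower), and ERN1 and CHAC1 also passed a log2 fold change of 1 (2.12%). Both calls of VLDLR were lost with median-ratio size factors (0.45 and -0.38). From D14 to D28 in U87, the call of CHAC1 was also lost without D28 replicate 1 or D28 replicate 3. That of VLDLR was lost without D28 replicate 1 or D28 replicate 2. The comparisons from D3 to D14 and from D14 to D28 share the D14 libraries, and in U87 0 of the 8 IFN-γ target genes passed at D14 against Untreated by limma. In U251, 7 of the 8 IFN-γ target genes fell from D3 to D14 and 7 rose from D14 to D28. Of the 7 glial markers in U251, 6 rose and then 6 fell at these steps. The part of these other genes in the changes was not tested.

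The D28WO libraries, labelled as withdrawn from IFN-γ, did not stand at the Untreated levels in either line. In U87, 21 of the 33 genes passed between D28WO and D28 (18.3% of all genes tested), 19 higher and 2 lower at D28WO (9.9% and 8.44% of all genes), and 12 of the 15 ATF4-side genes rose. For 14 of the 15 ATF4-side genes in U87 all D28WO libraries lay above all other libraries of the line. The share of all genes with this order was not counted, and 28.6% of all genes rose at D28WO against Untreated. Past a log2 fold change of 1 from D28 to D28WO (5.53% of all genes) were ERN1 (1.38 ± 0.14), TRIB3 (1.17 ± 0.24), CHAC1 (1.08 ± 0.22) and ASNS (1.01 ± 0.16), with limma adjusted p of 0.00014, 0.00674, 0.00681 and 0.00161. HSPA5 rose by 0.82 ± 0.09 and DNAJB9 by 0.73 ± 0.11 (limma adjusted p 0.000228 and 0.00104), while SDF2L1 fell by 0.72 on the log2 scale (limma adjusted p 0.00225). The ER side of U87 split at D28WO, with 8 of 18 genes above and 7 below Untreated (28.6% and 13.4% of all genes). This split became 2 above and 8 below with median-ratio size factors.

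In U251, 17 of the 33 genes passed between D28WO and D28 (29.1% of all genes tested), 8 higher and 9 lower (10.3% and 18.8% of all genes). With median-ratio size factors the split was 14 higher and 3 lower, where the median of all genes had shifted by -0.12 on the log2 scale without them. The count was 11 without D28 replicate 2 and 11 without D28WO replicate 3. Of the 33 genes, DDIT4 alone passed a log2 fold change of 1 as well (9.26% of all genes). Of the ATF4-side genes, 5 rose (among them ASNS by 0.49 and PSAT1 by 0.43) and 1 fell (PPP1R15A by 0.29).

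**Figure D5:**
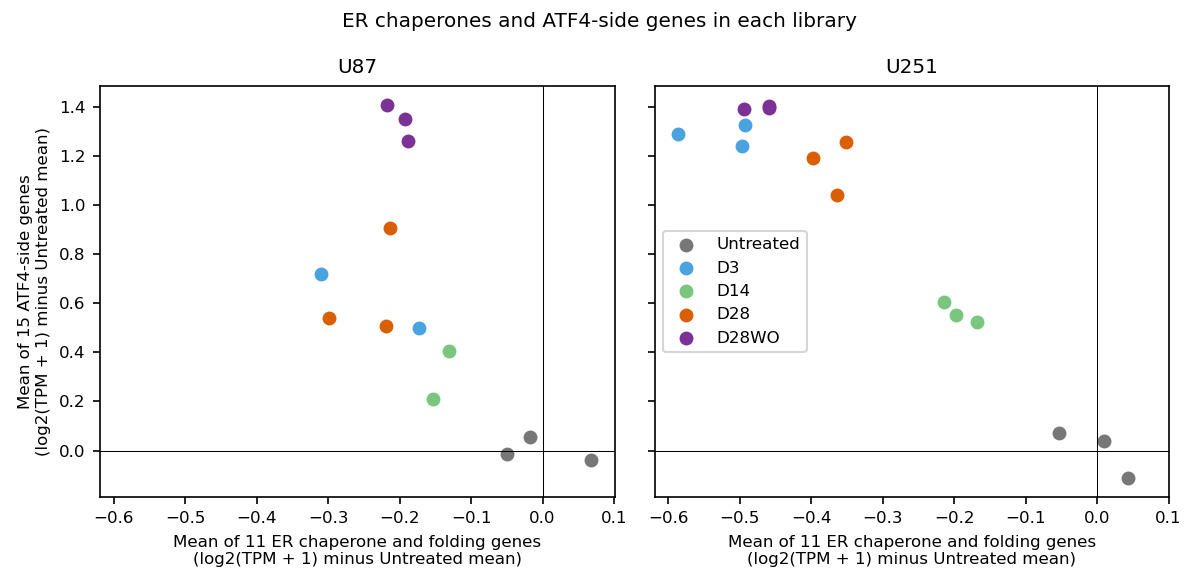
Mean of the 15 ATF4-side genes (vertical axis) against the mean of the 11 ER chaperones and folding factors (horizontal axis) in each library, both as log2(TPM + 1) minus the Untreated mean of the line. All exposed libraries lie to the upper left of the Untreated ones, D14 nearest to them, and the D28WO libraries are highest in each line, at 1.26 to 1.41 in U87 and 1.39 to 1.41 in U251.

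Averaged by library, the ATF4 side of U251 stood at 1.24 to 1.33 at D3, 0.53 to 0.61 at D14, 1.04 to 1.26 at D28 and 1.39 to 1.41 at D28WO above the Untreated mean (log2). In U87 the same averages were 0.50 to 0.72, 0.21 to 0.41, 0.51 to 0.91 and 1.26 to 1.41. The chaperone averages in U251 were -0.59 to -0.49 at D3, -0.21 to -0.17 at D14, -0.40 to -0.35 at D28 and -0.49 to -0.46 at D28WO. In U87 they were -0.31 to -0.17, -0.15 to -0.13, -0.30 to -0.21 and -0.22 to -0.19. Within U87 groups single libraries led the ATF4 side. At D28, replicate 3 was the highest for 13 of the 15 genes, and at D3, replicate 2 for 14 of 15. In U251 at D28, replicate 3 was the lowest for 12 of 15.

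Other genes of these pathways were counted from separate lists. Of 36 further ATF4 targets, mainly amino acid transporters, tRNA synthetases and metabolic enzymes, 14 rose and 1 fell at D3 in U87, 4 and 1 at D14, 17 and 0 at D28 and 31 and 1 at D28WO. All genes tested gave 12.4% and 4.28%, 4.14% and 1.02%, 17.2% and 6.55%, and 28.6% and 13.4% in these comparisons. In U251 the counts were 33 and 1, 15 and 1, 30 and 2, and 32 and 1, beside 24.9% and 16%, 13.8% and 7.31%, 25.9% and 14.7%, and 14.3% and 13.4% of all genes. The same shares of all genes apply to the lists that follow. The largest changes in U87 were those of SLC6A9, a glycine transporter (3.45 at D28WO), CTH, the last enzyme of cysteine synthesis (3.29), and CBS, the enzyme before it (2.82), each as log2 fold change. In U251 they were those of WARS1, tryptophanyl-tRNA synthetase (3.34 at D28WO), which is also a known IFN-γ target and stands in the IFN-γ list above, JDP2, a repressor that binds ATF-type sites (3.12 at D28), and SLC6A9 (2.84 at D3).

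Of 36 further ER genes (folding enzymes, the translocon, degradation factors and coat proteins), 1 rose and 3 fell at D3 in U87, 0 and 1 at D14, 1 and 6 at D28 and 3 and 14 at D28WO. Of all genes, 4.28%, 1.02%, 6.55% and 13.4% fell in these comparisons. In U251 the counts were 2 and 12, 3 and 7, 6 and 11, and 0 and 16. Past a log2 fold change of 1 against Untreated were ERO1B, an oxidase of the ER, in U87 (1.42 at D28WO), and DERL3, a degradation factor, and PDIA5, a disulfide isomerase, in U251 (-2.29 at D28WO and -1.84 at D3). Among the other kinases of eIF2α, EIF2AK2 (PKR), which senses double-stranded RNA and is interferon-inducible, rose in U87 at D3, D28 and D28WO (0.38, 0.50 and 0.61) and in U251 at all 4 times (1.17, 0.92, 0.79 and 1.27). EIF2AK4 (GCN2), which senses uncharged tRNA, passed only at D28WO in U251 (0.25), and EIF2AK1 (HRI), which senses haem shortage, only at D28 in U251 (-0.30).

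Of 10 cytosolic heat shock genes, 0 rose and 3 fell at D3 in U87, 0 passed at D14 (limma, with 7 at an unadjusted p under 0.05), 0 rose and 7 fell at D28, and 0 rose and 8 fell at D28WO, where the falls of all genes were 4.28%, 1.02%, 6.55% and 13.4%. HSPA8, the constitutive cytosolic HSP70, had a log2 fold change of -1.34 at D28WO, and HSPA1B had -1.30, with reads that may be divided uncertainly between it and its near-identical copy HSPA1A. In U251 the counts were 2 and 4, 3 and 0, 2 and 4, and 1 and 7. Of 10 genes of the mitochondrial unfolded protein response, at most 3 rose and at most 3 fell in any comparison with Untreated of either line. The summed glial markers also differed between groups. In U87 they stood at 2167 to 2406 TPM in Untreated, 1944 to 1966 at D3, 2055 to 2129.7 at D14, 1979 to 2126 at D28 and 1674 to 1836 at D28WO, with 2, 0, 1 and 4 of the 6 markers tested lower and 0, 0, 2 and 1 higher. In U251 they stood at 4066 to 4132 TPM in Untreated, 1677 to 2043 at D3, 2825 to 3225 at D14, 1828 to 2054 at D28 and 2379 to 2464 at D28WO, with 7, 6, 7 and 6 of 7 markers lower, and their part in the changes of the 33 genes was not tested.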

How the data were processed

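Bulk RNA was sequenced from 30 libraries, of which 28 were used. The submitters' processing notes name FastQC, Trim Galore, STAR, featureCounts, edgeR and GRCh38. The authors deposited 1 table of TPM values per line, and how TPM was computed, and whether strand was used in counting, is not given in the sources used here, so overlapping and antisense genes cannot be told apart. In U87, 2 columns that carry the same name were not used, because they match no single sample.

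Genes were kept where their TPM averaged 0.5 or more over a line's libraries. Log2(TPM + 1) was fitted with limma 3.58.1 (R 4.3.3), with a trend in the prior variance and 5 groups in a fit per line, and 7 comparisons were drawn. A fold change on this scale understates the change of low genes. P-values were adjusted by Benjamini-Hochberg over all genes of a line and comparison, and the comparisons with Untreated share their control libraries. The procedure was tested on simulated data. Alternatives were another pseudocount, filter, scaling, weighting, call rule, grouping, replicate block and each library left out.

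The 33 genes and all lists were chosen with earlier results of these data known. All 33 are accounted for. Genes past both limits (adjusted p under 0.05, log2 fold change over 1) in a line have full statistics there in at least 1 comparison, not in every one. So does the called gene with the largest change against Untreated in each class and line. Genes of the further ATF4, ER and cytosolic heat shock lists are named where past both limits against Untreated, at most 3 per list and line. The kinases of eIF2α are named as well. IFN-γ targets are given by counts and medians, and markers by levels and counts. Promoters came from RefSeq (GRCh38.p14). The marker lists of leukocyte, epithelial and endothelial cells were summed per group, with these ranges. In U251 the endothelial sum was 26.6 to 38.4 TPM in Untreated and 2.45 to 3.46, 9.79 to 21.4, 4.16 to 4.82 and 4.31 to 8.80 TPM at D3, D14, D28 and D28WO, the epithelial sum 104.7 to 111.7 TPM and 50.2 to 62.4, 83.8 to 99.0, 60.6 to 83.9 and 64.4 to 73.1 TPM, and the leukocyte sum 135.5 to 143.1 TPM and 77.2 to 137.3, 96.7 to 111.7, 137.7 to 169.7 and 93.7 to 112.0 TPM. In U87 the leukocyte sum was 310.6 to 376.1 TPM in Untreated and 285.5 to 298.8, 263.7 to 301.6, 277.6 to 448.3 and 214.6 to 246.0 TPM, and the epithelial and endothelial sums at each time overlapped with Untreated. The part of these markers in the results was not tested.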

Additional observations from a re-analysis of the deposited data

Results flagged for a closer look

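The values here were picked out because the 2 groups of a comparison did not overlap in either line, with opposite order in U87 and U251. This held for 15 combinations of gene and comparison over 11 of the 33 genes. The share of all genes with such an order was not counted, and at D3 and D14 it rests on 2 libraries per group in U87. The difference between the lines was not tested in any of them, since the tables of the lines were normalized separately, and each value is a log2 fold change. At D3 against Untreated, HYOU1 had -0.12 in U87 and 0.14 in U251, ATF6 had -0.13 in U87 and 0.31 in U251 and EIF2AK3 had 0.39 in U87 and -0.63 in U251. At D14 against Untreated, VLDLR had 0.24 in U87 and -0.34 in U251. At D28 against Untreated, ATF6 had -0.34 in U87 and 0.21 in U251 and DDIT4 had 0.28 in U87 and -0.37 in U251. At D28WO against Untreated, HSPA5 had 0.41 in U87 and -0.24 in U251. From D3 to D14, HYOU1 had 0.0796 in U87 and -0.14 in U251, EIF2AK3 had -0.17 in U87 and 0.32 in U251 and ATF3 had -0.58 in U87 and 0.27 in U251. From D28 to D28WO, DNAJB9 had 0.73 in U87 and -0.27 in U251, PDIA6 had -0.20 in U87 and 0.23 in U251, XBP1 had 0.26 in U87 and -0.16 in U251, ATF3 had 0.51 in U87 and -0.18 in U251 and PPP1R15A had 0.70 in U87 and -0.29 in U251. HSPA5 at D28WO against Untreated, and DNAJB9, XBP1 and PPP1R15A from D28 to D28WO, passed the test in both lines. Each of the other combinations did not pass in at least 1 line. Of the calls that passed in both lines, that of XBP1 was lost in 7 of the 13 fits of U87 and 4 of the 15 of U251 that left out 1 library. That of DNAJB9 was lost in 2 of the 15 of U251. With median-ratio size factors HSPA5 in U87 (0.18), DNAJB9 in U251 (-0.18) and XBP1 in U87 and U251 (0.21 and -0.069) did not pass, and with quantile normalization HSPA5 in U251 (-0.13) did not, so that of these 4 genes PPP1R15A alone passed in both lines under both scalings. Their calls were made in each line alone.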

How the results depend on the processing

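Settings were changed in turn from limma on log2(TPM + 1), and every setting listed for the analysis was run. With a log2 fold change over 1 also required, the counts of the 33 genes in the order D3, D14, D28 and D28WO against Untreated, D14 against D3, D28 against D14 and D28WO against D28 were 4, 1, 4, 11, 1, 2 and 4 in U87 and 12, 3, 11, 12, 8, 6 and 1 in U251. In U87, quantile normalization gave 11 at D3, 6 from D3 to D14 and 5 from D14 to D28, median-ratio size factors 1 and array weights 5 from D3 to D14, and a fit of only the 2 groups compared gave 6 at D3, 1 at D14, 0 from D3 to D14 and 1 from D14 to D28.

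Leaving out 1 library gave 3 to 18, 1 to 3, 13 to 18, 28 to 29, 1 to 4, 1 to 4 and 17 to 23 in U87, and 28 to 30, 14 to 18, 26 to 29, 27 to 29, 22 to 25, 19 to 25 and 11 to 19 in U251. In U87, the count at D14 was 1 without either D14 library, the count from D3 to D14 was 1 without any of the D3 and D14 libraries and 4 without Untreated replicate 3 or D28 replicate 3, and the count from D14 to D28 was 1 without either D14 library.

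Replicate numbers did not pair the libraries (correlations of same-numbered deviations were -0.058 to 0.047 in U87 and -0.037 to 0.048 in U251). With the replicate block the counts were 17, 2, 18, 29, 2, 2 and 21 in U87 and 29, 16, 27, 27, 24, 24 and 18 in U251, and 3 of 93 calls of single genes in U87 and 5 of 169 in U251 were lost. A pseudocount of 0.1 or a filter at 1 TPM lost 0 calls, no filter 8 and 13, quantile normalization 16 and 8, median-ratio size factors 18 and 20, array weights 2 and 2, and a fit of only the 2 groups compared 24 and 16. No call changed direction under any of these settings. The fit of the Untreated, D3 and D28 libraries alone was chosen after seeing the data and lost 6 of the 36 calls at D3 and D28 against Untreated in U87 and 2 of 57 in U251. TPM keeps no depth, so what depth limits could not be stated, and U87 had n = 2 at D3 and D14. Leaving out 1 of those libraries left 1 in its group, with the spread taken from the other groups.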
